A study of Homo sapiens with 6 samples.

Results

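The cadherins and protocadherins are the genes described here, read across 6 RNA libraries of human neuroblastoma cells. They were taken from the deposited count table by symbol: every row named CDH followed by a number, and every row whose name begins with PCDH. This gave 88 genes out of 25370 rows, of which 23 were CDH genes, 12 were protocadherins that stand alone in the genome, and 53 belonged to the protocadherin gene clusters (15 PCDHA, 16 PCDHB and 22 PCDHG genes). The rule left out 8 further symbols: 4 pseudogenes (PCDHB17, PCDHB18, PCDHB19P and PCDHGB8P), 3 antisense RNAs of PCDH9, and PCDH11Y.

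Cadherins are calcium-dependent adhesion proteins whose outer repeats bind the same or a related cadherin on a neighbouring cell and whose tails, in the classical type I and type II members, bind catenins that link to actin. N-cadherin (CDH2) is the main type I cadherin of neural tissue and of cells that have left the neural crest, whereas E-cadherin (CDH1) and P-cadherin (CDH3) mark epithelia. Protocadherins are relatives without the classical catenin-binding tail; those that stand alone take part in sorting and wiring neurons, and those of the clusters are switched on in different combinations in single neurons, by a choice among their promoters, which gives each cell a surface identity.

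BE2C is a clonal subline of a MYCN-amplified neuroblastoma line. The study forced the expression of LMO1, a LIM-only transcriptional co-regulator, in BE2C cells (LMO1 group, 2 libraries) and compared them with BE2C cells carrying the vector (vector group, 2 libraries). Unmodified BE2C cells (the parental library) and Kelly cells, a MYCN-amplified line from another tumour, gave 1 library each. The labels name neither the promoter that drove LMO1 nor clones or pools of modified cells. Whether the paired libraries of each group were separate cultures is not stated, and p-values therefore cover the spread between those libraries alone, possibly a technical one.

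Total counts ran from 18737591 to 59512958 per library. Levels are given as TMM-scaled CPM, the usual unit of a gene's count relative to its library's depth, and a gene was called when its edgeR adjusted p for LMO1 against vector was below 0.05. LMO1 itself was at 6.55 and 5.85 CPM with forced expression, 1.05 and 0.926 CPM with the vector, 1.93 CPM in parental cells and 94.1 CPM in Kelly. All 12 adrenergic neuroblastoma markers read were above 1 CPM in every library, with sums of 5085 to 7205 CPM. The summed levels of the marker lists for other cell types were 4.40 to 12.4 CPM for 8 epithelial genes, 1.51 to 4.56 CPM for 6 endothelial genes, 0.792 to 1.41 CPM for 5 immune genes, 5.03 to 7.25 CPM for 5 Schwann cell genes and 102 to 191 CPM for 7 fibroblast genes. In bulk RNA, fewer cells expressing a gene and less of its RNA per cell cannot be told apart.

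Most cadherins and protocadherins were expressed. Of the 88 genes, 69 were at or above 1 CPM in all 6 libraries and 11 were below 1 CPM in all of them. The clustered genes held 49 of their 53 members above that level everywhere, and the non-clustered genes 20 of 35. CDH2 had the highest mean over the 6 libraries, 224 CPM, followed by PCDH9 (137 CPM), PCDH1 (107 CPM) and the type II cadherin CDH24 (89.8 CPM). PCDH17 (41.2 CPM), PCDHGC3 (36.8 CPM), PCDHB15 (33.2 CPM), PCDH10 (29.7 CPM), PCDHAC2 (28.4 CPM) and PCDHAC1 (25.3 CPM) completed the highest 10. Among these 10, the order changed when levels were divided by the length of exon sequence not shared with another gene. On that per-kilobase scale CDH2 stayed first at 50.4 CPM per kb, CDH24 followed at 25.3, PCDH1 at 19.7 and PCDHGC3 at 12.9. PCDH9, whose annotated exons span 30726 bases, stood at 4.47. PCDHGC3 was divided by the 2849 unshared of its 5030 exon bases. Its place thus depends on how reads in shared exons were counted, which is not given.

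With LMO1, 10 of the 78 genes tested rose (12.8%) and 14 fell (17.9%), while 54 did not pass the test. Across all 15480 genes tested, 15.9% were called higher and 15.1% lower, shares close to those of the members. Their median log2 fold change was -0.15, against 0.00 over all genes. The calls were unevenly spread between the kinds of gene. Among the 25 non-clustered genes tested, 7 rose and 11 fell (28% and 44%), with a median log2 fold change of 0.10. Among the 53 clustered genes, 3 rose and 3 fell (5.66% each), with a median of -0.18. The median of the mean level over all 6 libraries was 13.4 CPM for the non-clustered and 7.28 CPM for the clustered genes tested. Those means take in the parental and Kelly libraries, which were not in the test. They are thus not the depth behind the fold changes. PCDH19, for instance, had a mean of 15 CPM, with 84.4 CPM in Kelly and 0 to 0.995 CPM in the 4 libraries tested. A subset drawn after the values were seen held the 20 non-clustered genes with means up to the highest clustered one. In it, 6 rose and 7 fell, and it is not matched for depth in the test. Its median SE was 0.169, against 0.163 for the clustered genes, and its median absolute log2 fold change was 0.78, against 0.29. Whether the 2 kinds differ was not tested.

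**Figure D1:**
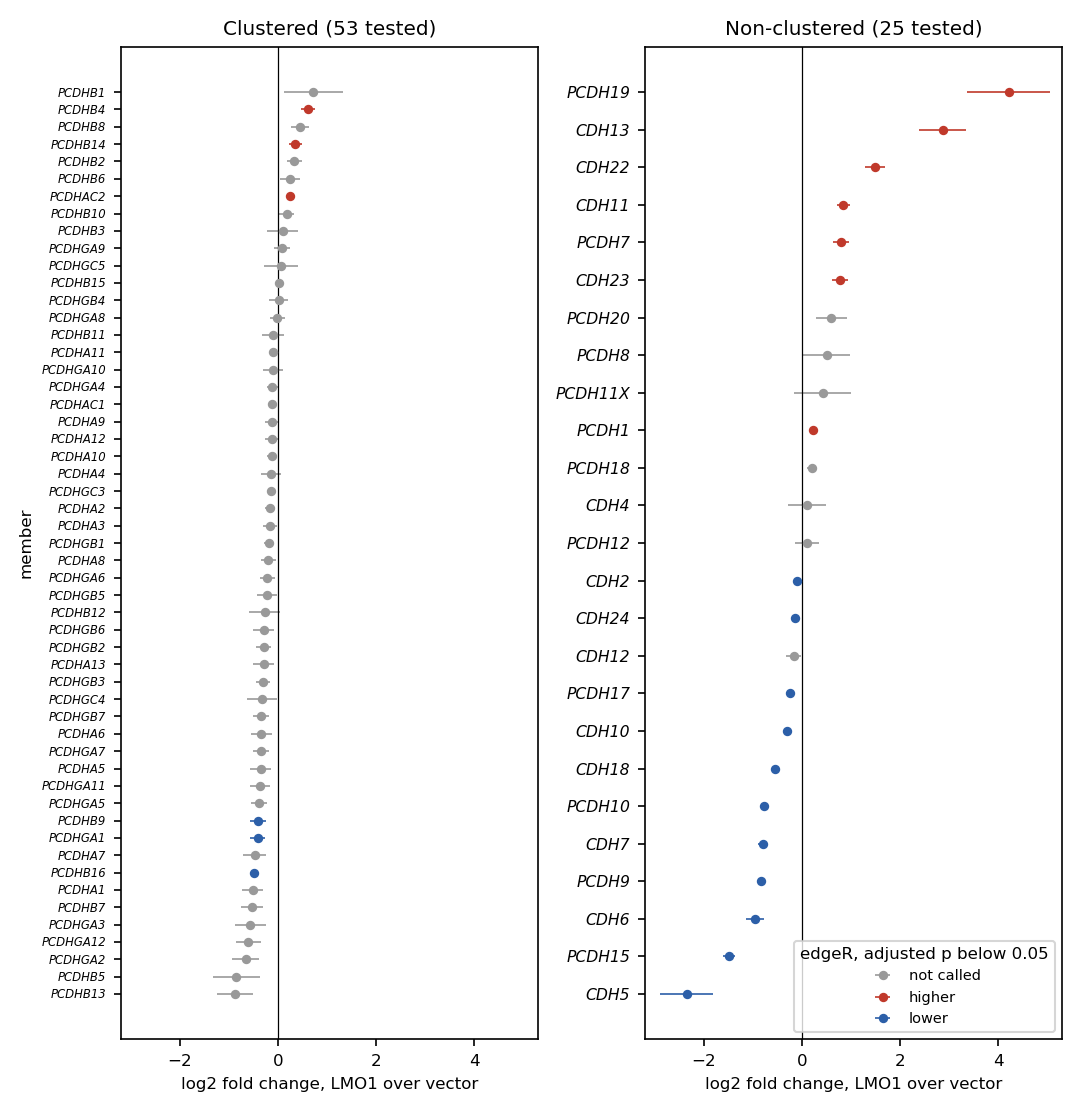
Log2 fold change of LMO1 over vector (x axis) for each member tested (y axis), clustered protocadherins on the left and non-clustered genes on the right. Points are edgeR estimates, bars are ± 1 SE, and colour marks the call at an adjusted p below 0.05. The 53 clustered genes lie between -0.87 and 0.72, whereas the 25 non-clustered genes run from -2.35 for CDH5 to 4.21 for PCDH19.

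The type I cadherins were represented mainly by N-cadherin in BE2C. CDH2 read 220 and 216 CPM with LMO1, 228 and 240 CPM with the vector, 235 CPM in parental cells and 207 CPM in Kelly. The groups did not overlap, but the log2 fold change was only -0.10 (SE 0.0358, edgeR adjusted p = 0.0342). That call was lost with DESeq2 (adjusted p = 0.0555) and with library totals in edgeR (adjusted p = 0.14). It was also lost without LMO1 replicate 1 (edgeR adjusted p = 0.0531), LMO1 replicate 2 (0.148) or vector replicate 2 (0.426, log2 fold change -0.06). CDH1 had 4 counts at most in any library and CDH3 had 2, so neither epithelial cadherin was detectable beyond the 3 counts that a count of 0 allows, apart from the 4 CDH1 counts in the parental library. M-cadherin (CDH15), first known from muscle, had 5 to 34 counts, at most 0.838 CPM. None of these 3 entered the test.

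R-cadherin (CDH4), the retinal and neural relative of N-cadherin, set Kelly apart. It had 1.05 and 1.80 CPM with LMO1, 1.01 and 1.65 CPM with the vector and 4.48 CPM in the parental library, and reached 49.0 CPM in Kelly. The LMO1 and vector values overlapped (log2 fold change 0.11, SE 0.388, edgeR adjusted p = 0.86). Kelly exceeded the parental library 10.9-fold (95% interval from counting error alone, 9.52 to 12.6).

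Type II cadherins, which bind in their own set of partners and are laid out in patterns across neural nuclei and mesenchyme, held most of the calls among CDH genes. Of 13, 9 were tested, and 6 of these fell with LMO1 (66.7%) while 2 rose (22.2%). Over all genes tested the shares were 15.1% lower and 15.9% higher. CDH6, CDH7, CDH10, CDH18 and CDH24, all known from neural or neural crest tissue, were among those that fell. CDH7 was at 18.6 and 20.2 CPM with LMO1 and at 34.1 and 33.7 CPM with the vector, a log2 fold change of -0.80 (SE 0.0896, edgeR adjusted p = 5.42e-10). CDH6 was at 4.29 and 4.58 CPM against 9.16 and 8.29 CPM (log2 fold change -0.96, SE 0.176, edgeR adjusted p = 2.05e-05). CDH18 was at 21.2 and 21.1 CPM against 29.8 and 31.8 CPM (log2 fold change -0.54, SE 0.0900, edgeR adjusted p = 4.75e-06). In all 3 the LMO1 libraries lay below both vector libraries, and the parental library, with 9.25, 5.36 and 15.8 CPM for CDH7, CDH6 and CDH18, lay below the vector libraries too.

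The other falls among type II genes were smaller or rested on few reads. CDH10 went from 25.1 and 25.8 CPM with the vector to 19 and 22 CPM with LMO1, a log2 change of -0.30 (SE 0.0969, edgeR adjusted p = 0.0137). The CDH10 call was lost without LMO1 replicate 1 (edgeR adjusted p = 0.14, log2 fold change -0.21) or vector replicate 2 (0.0775). CDH24, second only to CDH2 among cadherins, was at 89.4 and 88.3 CPM against 99.9 and 97.3 CPM. Its log2 fold change of -0.14 (SE 0.0495, edgeR adjusted p = 0.0225) did not survive library totals (0.0703) or the removal of any single library (0.0532 to 0.171). CDH12 was not called (log2 fold change -0.17, SE 0.147, edgeR adjusted p = 0.418). Of the 5 type II genes on chromosome 5, CDH6, CDH10 and CDH18 thus fell, CDH12 was not called and CDH9 was too low to test.

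VE-cadherin (CDH5), the junction cadherin of endothelium, had the lowest fold change among the members. It had 4 and 7 counts with LMO1, 24 and 40 with the vector, 31 in parental cells and 0 in Kelly, where a count of 0 allows up to 0.0504 CPM. These correspond to 0.209 and 0.308 CPM with LMO1 and 1.10 and 1.61 CPM with the vector, without overlap. The log2 change was -2.35 (SE 0.541, edgeR adjusted p = 0.000604). Summed endothelial markers were 4.03 and 3.65 CPM with LMO1 and 1.51 and 2.98 CPM with the vector, the opposite order. Single markers were mixed. KDR and TIE1 were at 0 in both vector libraries, but TIE1 was also at 0 in LMO1 replicate 2. PECAM1 was at 0 in both LMO1 libraries and in vector replicate 1, and above 0 in vector replicate 2.

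OB-cadherin (CDH11), a mesenchymal type II cadherin, and CDH22, a type II cadherin of brain, rose with LMO1. CDH11 was at 22.2 and 16.6 CPM with LMO1, 12.4 and 9.42 CPM with the vector, 15.2 CPM in the parental library and 50.9 CPM in Kelly. The log2 change was 0.84 (SE 0.133, edgeR adjusted p = 1.96e-06). CDH22 was at 8.43 and 7.70 CPM with LMO1, 3.25 and 2.54 CPM with the vector, 5.27 CPM in the parental library and 10.1 CPM in Kelly, a log2 fold change of 1.49 (SE 0.202, edgeR adjusted p = 6.25e-08). For both genes the LMO1 libraries lay above the vector libraries without overlap, and Kelly was the highest of the 6. Summed fibroblast markers, which CDH11 often accompanies, were 109 and 108 CPM with LMO1 and 102 and 108 CPM with the vector, and their part in the result was not tested.

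The CDH genes outside the classical types contributed the other rises. T-cadherin (CDH13) lacks a cytoplasmic tail and is held in the membrane by a lipid anchor. It had 52 and 40 counts with LMO1 and 8 and 6 with the vector, which is 2.72 and 1.76 CPM against 0.367 and 0.241 CPM. The parental library stood at 1.74 CPM, close to LMO1 replicate 2, and Kelly at 63.3 CPM. The log2 fold change for LMO1 was 2.87 (SE 0.479, edgeR adjusted p = 4.47e-06).

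CDH23 and PCDH15, whose proteins join to form the tip link of sensory hair cells, moved in opposite directions. CDH23 was at 9.90 and 9.95 CPM with LMO1 and at 5.64 and 5.96 CPM with the vector, with 13.6 CPM in the parental library and 4.78 CPM in Kelly (log2 fold change 0.78, SE 0.159, edgeR adjusted p = 0.00012). PCDH15 was at 8.48 and 9.20 CPM with LMO1 and at 24 and 26.2 CPM with the vector (log2 fold change -1.49, SE 0.116, edgeR adjusted p = 8.25e-15). In parental cells PCDH15 stood at 7.12 CPM and in Kelly at 5.32 CPM, so the 2 vector libraries were the high ones and the other 4 lay together.

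Among the 12 non-clustered protocadherins, all tested, 4 fell (33.3%) and 3 rose (25%), against 15.1% lower and 15.9% higher over all genes tested. The members that fell were PCDH15, PCDH9, PCDH10 and PCDH17. PCDH9, which is abundant in the developing nervous system, went from 225 and 227 CPM with the vector to 125 and 127 CPM with LMO1 (log2 fold change -0.84, SE 0.0385, edgeR adjusted p = 4.68e-23). It stood at 113 CPM in the parental library and at 8.19 CPM in Kelly. PCDH9 made up 48.5% and 48.6% of the summed level of non-clustered protocadherins in the vector libraries and 36.4% and 36.1% in the LMO1 libraries. Antisense RNAs overlap PCDH9, and without the strand setting of the counting their reads and those of PCDH9 cannot be told apart.

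PCDH10, which recruits the WAVE complex to the membrane to move actin, was at 25.1 and 22.7 CPM with LMO1, 41.4 and 41.1 CPM with the vector, 37.2 CPM in the parental library and 10.4 CPM in Kelly. The log2 change was -0.78 (SE 0.0824, edgeR adjusted p = 8.92e-11), and here the parental library sided with the vector. PCDH17, a relative of PCDH10 with a part in synapse formation, was at 40.2 and 45.1 CPM against 51.1 and 51.3 CPM. That change of -0.25 on the log2 scale (SE 0.0704, edgeR adjusted p = 0.00427) was not called without LMO1 replicate 1 (-0.18, adjusted p = 0.0914).

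PCDH1, PCDH7 and PCDH19 rose. PCDH1 was at 105 and 106 CPM with LMO1, 93.6 and 88.2 CPM with the vector, 157 CPM in the parental library and 90.4 CPM in Kelly (log2 fold change 0.22, SE 0.0491, edgeR adjusted p = 0.000437). PCDH7 was at 9.22 and 11.0 CPM with LMO1, 5.32 and 6.36 CPM with the vector, 5.15 CPM in the parental library and 23.9 CPM in Kelly (log2 fold change 0.80, SE 0.162, edgeR adjusted p = 0.000117). Neither pair of groups overlapped, and the parental library lay above all 4 modified libraries for PCDH1 and below them for PCDH7.

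PCDH19, the X-linked gene of an epilepsy that affects mainly heterozygous females, was near its floor in BE2C with the vector. It had 19 and 18 counts with LMO1, 0 and 2 with the vector, 182 in the parental library and 5030 in Kelly. The summed counts gave a ratio of 20.6 for LMO1 over vector, with a counting interval of 5.33 to 177. The fitted log2 fold change of 4.21 (SE 0.847, edgeR adjusted p = 9.64e-05) depends on how the fit treats those few vector counts, and it moved to 3.38 when vector replicate 1 was left out and to 7.25 when vector replicate 2 was. In CPM the 6 values were 0.995, 0.792, 0, 0.0805, 3.81 and 84.4 in the same order, so that PCDH19 was higher with LMO1 than with the vector, higher still in parental cells and highest in Kelly.

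**Figure D2:**
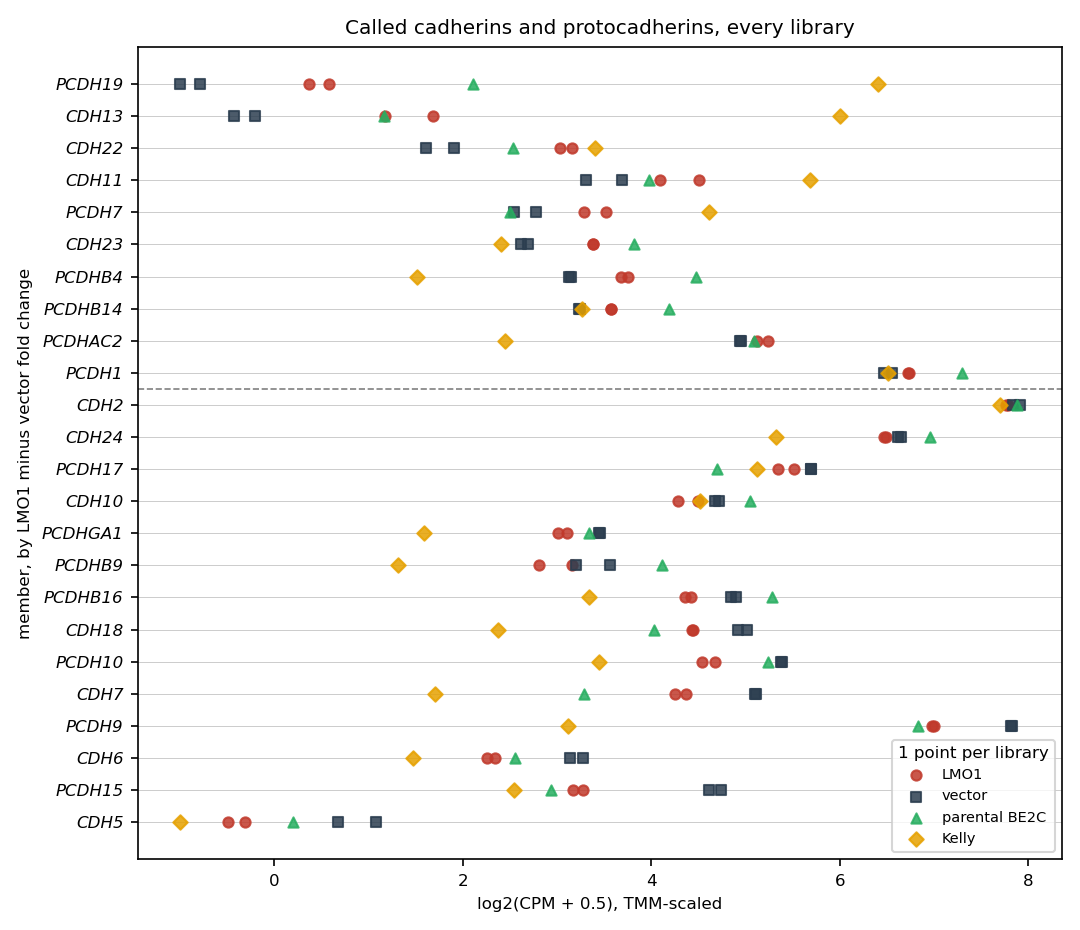
Level of each of the 24 called members (y axis, ordered by fold change) in every library, as log2(CPM + 0.5) on the x axis, 1 point per library. Members above the dashed line rose with LMO1 and those below it fell. The 2 LMO1 circles and the 2 vector squares do not overlap for any of the 24, while the parental triangle often falls outside the range between them, as for CDH7 and PCDHB4. The groups do not overlap for 59 of all 78 members tested, called or not, so this does not set the called ones apart. The share over all genes was not counted, so whether that number is unusual is not known.

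The clustered protocadherins lie side by side on chromosome 5 in the order PCDHA, PCDHB, PCDHG. Each PCDHA and PCDHG gene has its own promoter and large first exon, spliced to constant exons shared by its cluster, while each PCDHB gene stands on its own in a single exon. Most of their promoters carry a conserved element, bound by CTCF, through which cohesin-held loops bring a distant enhancer to the promoter that is used. RefSeq promoter windows (GRCh38.p14, 250 bases before to 50 after the start) were matched for 69 of the 88 members, among them 13 PCDHA, 14 PCDHB and 20 PCDHG genes. The short word CGCT, searched on both strands, was in 12 of 13 PCDHA, 14 of 14 PCDHB and 20 of 20 PCDHG windows, against 69.3% of all windows. GGCGCT was in 1, 13 and 8 of them, against 21.5% of all windows. The longer word GTGGCGCT, also searched on both strands, was in 316 of all 27305 windows (1.16%). Among members it was in 13 of the 14 PCDHB windows (92.9%) and in no window of the other families. It lay on the sense strand, with its first base 1 to 83 bases before the start, so that in PCDHB8, at 1 base before, it crossed the start. In the 28 bases around it, pairs of these 13 genes agreed at 18 to 27 bases, with a median of 22. The match is a description of letters, not of binding. PCDHB2, which led the cluster in Kelly, was left out of the windows printed here. The 100 bases before the start are shown for a selection of PCDHB genes, all on the plus strand, with the word in capitals. They are PCDHB4 (chr5:141121718-141121817), PCDHB5 (chr5:141135106-141135205), PCDHB9 (chr5:141187061-141187160), PCDHB16 (chr5:141182287-141182386), PCDHB15 (chr5:141245295-141245394) and, as the window without the word, PCDHB1 (chr5:141051274-141051373).
PCDHB4: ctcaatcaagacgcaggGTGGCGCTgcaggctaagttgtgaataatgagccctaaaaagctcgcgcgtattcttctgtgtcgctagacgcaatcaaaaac
PCDHB5: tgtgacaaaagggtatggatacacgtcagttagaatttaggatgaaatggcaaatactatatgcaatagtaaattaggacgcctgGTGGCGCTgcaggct
PCDHB9: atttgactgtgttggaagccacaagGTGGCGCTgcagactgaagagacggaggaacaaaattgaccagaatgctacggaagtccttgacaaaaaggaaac
PCDHB16: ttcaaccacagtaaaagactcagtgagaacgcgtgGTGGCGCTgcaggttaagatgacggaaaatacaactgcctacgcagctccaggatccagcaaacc
PCDHB15: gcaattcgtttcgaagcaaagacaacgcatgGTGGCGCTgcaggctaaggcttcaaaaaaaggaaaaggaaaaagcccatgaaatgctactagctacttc
PCDHB1: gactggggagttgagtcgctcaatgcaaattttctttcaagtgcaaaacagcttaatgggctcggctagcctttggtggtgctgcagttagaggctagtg

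The cluster members share sequence, which bears on how their reads could be assigned. The median share of a gene's 50-base words that another cadherin or protocadherin transcript also holds was 49.3% for PCDHA, 44.1% for PCDHG and 14.25% for PCDHB, and 0 for CDH genes. Reads in the constant exons were not simply added to every gene of a cluster, since PCDHA13 had 29 counts in Kelly where PCDHA3 had 918. Values of single PCDHA and PCDHG genes, and of PCDHB8 (45.8% shared words, the most in PCDHB) and PCDH11X (56.1%), are uncertain to the extent that such reads were dropped or split.

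Most single clustered genes did not pass the test, but their estimates leaned down in PCDHA and PCDHG. The fold change was below 0 for 14 of 15 PCDHA genes, 19 of 22 PCDHG genes and 7 of 16 PCDHB genes, against 7720 of the 15480 genes tested. Genes of a cluster share sequence and were read in the same libraries, so their signs are not independent, and these counts have no test. The summed PCDHB level was 133 ± 7.03 CPM (SD, n = 2) with LMO1 and 134 ± 4.83 CPM (n = 2) with the vector. PCDHA summed to 187 ± 1.70 against 200 ± 10.2 CPM, and PCDHG to 165 ± 1.90 against 193 ± 2.07 CPM, a log2 difference of -0.22. These sums have no test, and the non-clustered protocadherins showed the widest gap, 347 ± 6.24 against 466 ± 2.75 CPM (log2 difference -0.42). PCDHB15 led the PCDHB genes in all 5 BE2C libraries with 21.2% to 26.3% of the sum. PCDHGC3 led PCDHG in the same libraries with 16.9% to 30.3%. In PCDHA the leading gene differed by group: PCDHAC2 in both LMO1 libraries (18.4% and 19.7%) and in the parental library (21.1%), and PCDHAC1 in both vector libraries (16.9% and 17.3%).

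Of the 16 PCDHB genes, 2 rose and 2 fell (12.5% each), near the 15.9% higher and 15.1% lower over all genes tested. PCDHB4 was at 12.3 and 13 CPM with LMO1, 8.34 and 8.21 CPM with the vector, 21.7 CPM in the parental library and 2.35 CPM in Kelly (log2 fold change 0.62, SE 0.140, edgeR adjusted p = 0.000446). PCDHB16 was at 20.9 and 20.0 CPM with LMO1, 28.2 and 29.2 CPM with the vector, 38.4 CPM in the parental library and 9.60 CPM in Kelly (log2 fold change -0.48, SE 0.0921, edgeR adjusted p = 4.61e-05). These 2 genes moved in opposite directions, and both windows above hold the same word. For both, the parental library was the highest and Kelly the lowest.

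The other 4 calls in the clusters were fragile. PCDHB14 (log2 fold change 0.36, SE 0.141, edgeR adjusted p = 0.0451) was at 11.4 CPM in both LMO1 libraries and at 8.94 and 8.89 CPM in the vector libraries, and lost its call with DESeq2 (0.135) and without any 1 of the 4 libraries (0.119 to 0.153). PCDHB9 (log2 fold change -0.41, SE 0.160, edgeR adjusted p = 0.046) was at 6.49 and 8.45 against 8.71 and 11.3 CPM. Its call was lost with DESeq2 (0.149), limma-voom (0.0578), library totals (0.0726) and all 6 libraries in the fit (0.0503), as well as without LMO1 replicate 1 (-0.24 log2, 0.394) or vector replicate 2 (-0.21 log2, 0.505). PCDHGA1 (log2 fold change -0.41, SE 0.148, edgeR adjusted p = 0.0295) was at 8.12 and 7.57 against 10.4 and 10.5 CPM and lost its call with DESeq2 (0.0932) and without any 1 library (0.0614 to 0.156). PCDHAC2 (log2 fold change 0.24, SE 0.0804, edgeR adjusted p = 0.0175) was at 34.3 and 37.1 against 30.2 and 30.5 CPM and lost its call with DESeq2 (0.0681), without LMO1 replicate 2 (0.134), and without vector replicate 1 (0.0755) or vector replicate 2 (0.072). In none of these 4 did the LMO1 and vector libraries overlap, which also held for 38 of the 53 clustered genes. The share over all genes was not counted, so the lack of overlap carries no weight here.

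More members were lower than higher in Kelly when set against parental BE2C, and most of the lower ones were clustered protocadherins. With 1 library of each line there is no test, and ratios are log2 of CPM with 0.5 added, for genes reaching 1 CPM in either library. Of 74 members in this comparison, 7 were at least 2-fold higher in Kelly (9.46%) and 30 at least 2-fold lower (40.5%). Over all 15013 genes compared, 17.5% were that much higher and 14.6% that much lower. The members' median log2 ratio was -0.71, against -0.01 for all genes. Among clustered genes, 2 of 52 were 2-fold higher and 23 lower. Among non-clustered genes, 5 of 22 were higher and 7 lower. Within these, 3 of 12 CDH genes were higher and 5 lower (41.7%), and 2 of 10 non-clustered protocadherins were higher and 2 lower.

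The 7 members higher in Kelly were CDH13, PCDH19, PCDHB5, CDH4, PCDHGB5, PCDH7 and CDH11. CDH13 was 36.4-fold higher (95% counting interval 29.3 to 45.8) and PCDH19 22.2-fold (19.1 to 25.8). PCDHB5 went from 0.649 CPM in the parental library to 19.1 CPM in Kelly, a 29.5-fold difference (20.7 to 43.6). PCDH7 was 4.64-fold higher (4.05 to 5.34) and CDH11 3.35-fold higher (3.09 to 3.64). Of these 7, the non-clustered CDH13, PCDH19, PCDH7 and CDH11 were also among the members that rose with LMO1.

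The lowest ratios belonged to PCDH9 and to genes of the clusters. PCDH9 was 13.8-fold lower in Kelly (12.6 to 15.2). PCDHA11 was at 21.9 CPM in the parental library and 1.31 CPM in Kelly, 16.7-fold lower (13.3 to 21.3). PCDHA10 was at 23.5 and 1.73 CPM, 13.6-fold lower (11.1 to 16.8). The remaining 5 of the 8 lowest were PCDHB4 (9.26-fold lower), PCDHB9 (8.47-fold), PCDHAC1 (7.98-fold), PCDHAC2 (6.75-fold) and PCDHA8 (7.11-fold). All 8 but PCDH9 were thus clustered genes, 5 of them PCDHA.

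Along the chromosome, the PCDHA genes at least 2-fold lower in Kelly all lay from PCDHA8 to PCDHAC2. The first 7 genes, PCDHA1 to PCDHA7, had log2 ratios of -0.45 to 0.52 and summed to 40.9 CPM in Kelly and 39.0 CPM in the parental library. The next 8, PCDHA8 to PCDHAC2, had ratios of -3.63 to -0.80, 7 of them at least 2-fold lower, and summed to 17.0 CPM in Kelly and 120 CPM in the parental library. PCDHG also differed along its length. The 12 genes from PCDHGA1 to PCDHGA8 ran from -2.04 to -0.65, with sums of 55.0 and 131 CPM, whereas the 10 genes from PCDHGB5 to PCDHGC5 had a median ratio of 0.55 and sums of 87.3 and 109 CPM, with PCDHGC3 the single member at least 2-fold lower (-1.75). These boundaries were drawn after the values were seen, and whether the segments differ beyond chance was not tested. Of the 15 genes before PCDHA, 1 was at least 2-fold lower in Kelly and 0 higher, with a median log2 ratio of -0.50. Of the 15 genes after PCDHG, 5 were lower and 2 higher, with a median of -0.69 and a range of -3.05 to 2.69, against the 14.6% lower and 17.5% higher among all genes. Those genes, from DIAPH1 to NR3C1, include the non-clustered members PCDH1 (log2 ratio -0.79) and PCDH12 (-0.48).

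**Figure D3:**
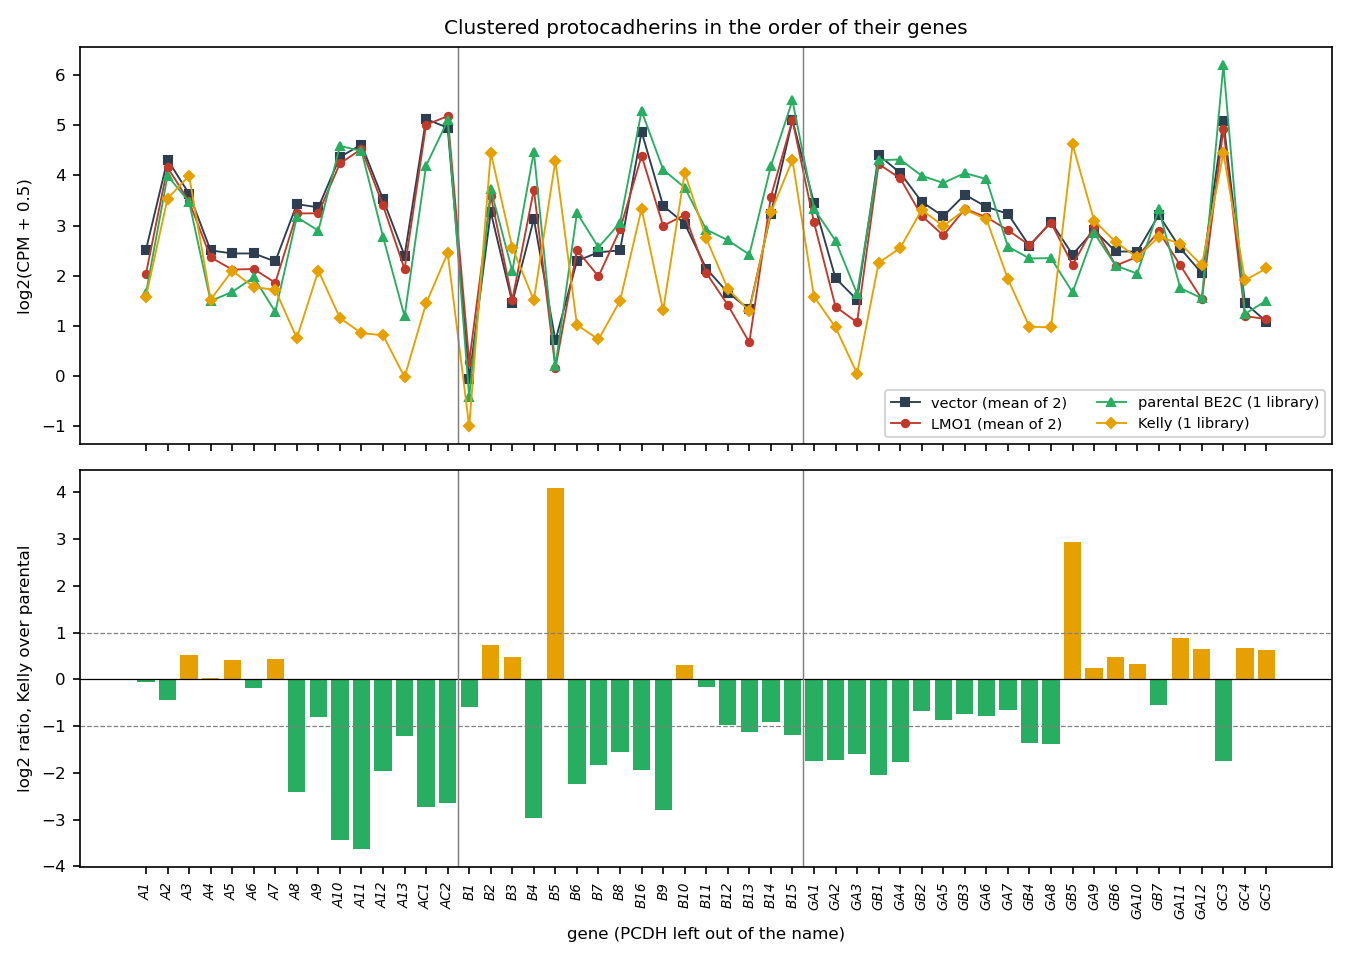
Clustered protocadherins in the order of their genes (x axis), with the level in each group as log2(CPM + 0.5) above and the log2 ratio of Kelly over parental BE2C below, orange where Kelly is higher and green where it is lower. Dashed lines mark 2-fold and vertical lines separate PCDHA, PCDHB and PCDHG. The LMO1 and vector lines run close together, and Kelly drops from PCDHA8 to PCDHAC2 and rises at PCDHB5 and PCDHGB5.

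PCDHGB5 and its neighbour in sequence PCDHGB4 differed in Kelly while the bases before their starts are almost the same. The 100 bases before the start are shown for PCDHGB4 (chr5:141387598-141387697) and PCDHGB5 (chr5:141397847-141397946), GRCh38.p14, plus strand, with the shorter word GGCGCT, held on either strand by 21.5% of all promoter windows, in capitals. Aligned on that word, 99 of 100 bases were identical.
PCDHGB4: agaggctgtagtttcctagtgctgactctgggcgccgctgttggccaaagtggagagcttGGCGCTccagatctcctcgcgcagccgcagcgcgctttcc
PCDHGB5: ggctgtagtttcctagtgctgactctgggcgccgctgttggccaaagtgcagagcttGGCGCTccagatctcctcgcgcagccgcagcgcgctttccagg

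PCDHGB5 was at 4.29, 4.01, 4.81 and 4.91 CPM in the 4 modified BE2C libraries, at 2.68 CPM in the parental library and at 24 CPM in Kelly, 8.95-fold above parental (7.47 to 10.8). PCDHGB4 was at 5.97, 5.24, 5.91 and 5.15 CPM in the modified libraries, 4.58 CPM in the parental library and 1.48 CPM in Kelly, 3.10-fold below parental (2.41 to 4.02). The 2 genes were thus close to each other in BE2C and far apart in Kelly. Their transcripts share 2644 words of 50 bases, of which 511 belong to this pair alone, so reads from the shared stretches could not be assigned by sequence.

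The leading gene of each cluster also changed with the line. In Kelly, PCDHB2 led PCDHB with 17.8% of the sum, PCDHA3 led PCDHA with 26.6% and PCDHGB5 led PCDHG with 16.9%. The summed levels in Kelly and the parental library were 57.9 and 159 CPM for PCDHA, 120 and 210 CPM for PCDHB, and 142 and 240 CPM for PCDHG. The CDH genes summed to 469 CPM in both lines, with CDH2 at 44.1% of the sum in Kelly and 50% in parental BE2C. PCDHB1, whose window lacked GTGGCGCT, was the lowest PCDHB gene in Kelly (0 counts) and had at most 1.23 CPM in any library. PCDHB5, whose window holds the word, was at 0.524 to 1.47 CPM in the BE2C libraries and at 19.1 CPM in Kelly. Whether the word goes with a gene's level was not tested.

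**Figure D4:**
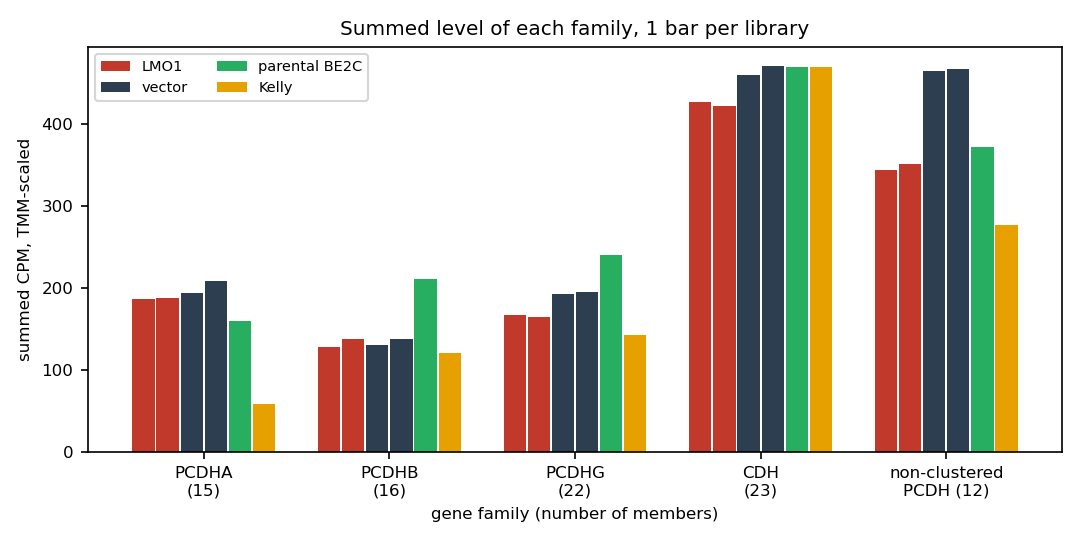
Summed TMM-scaled CPM (y axis) of each gene family (x axis, number of members in brackets), 1 bar per library. PCDHA drops to 57.9 CPM in Kelly, the CDH sum is 469 CPM in both unmodified lines, and the 2 LMO1 bars of the non-clustered protocadherins lie below both vector bars.

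The members called with LMO1 can be read in Kelly against parental BE2C, since those libraries were not in the LMO1 test. Of the 10 members that rose with LMO1, 4 were at least 2-fold higher in Kelly and 3 were lower. Among all genes called higher with LMO1, 22.5% were 2-fold higher in Kelly and 22.8% lower. Of the 14 members that fell, 13 could be compared, and 9 of these (69.2%) were at least 2-fold lower in Kelly and 0 higher. Among all genes called lower with LMO1, 19.4% were lower in Kelly and 7% higher. The 9 were drawn from a comparison in which 40.5% of members were lower in Kelly.

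Parental BE2C also differed from BE2C with the vector, and these ratios share the vector libraries with the LMO1 test, so their agreement or disagreement with it carries no weight. The labels do not say whether the parental library was prepared together with the others, and vector and preparation cannot be told apart. Of 75 members compared, 8 were at least 2-fold higher in the parental library than in the vector mean (10.7%) and 5 lower (6.67%). Across all 14384 genes compared the shares were 9.59% and 3.77%, and the median log2 ratios were -0.06 for members and 0.06 for all genes.

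PCDH19 (182 counts against 2 in both vector libraries together, a ratio of 88.9 with a counting interval of 24.3 to 740), CDH13 (5.79-fold), CDH4 (3.32-fold), PCDHB4 (2.63-fold) and CDH23 were the 5 highest in the parental library relative to the vector. CDH23 had a log2 ratio of 1.16. PCDHGC3, PCDHB13 and PCDHB12 also passed 2-fold, and PCDHGC3 was at 32.4 and 34.2 CPM in the vector libraries and at 72.8 CPM in parental cells. CDH7 (log2 ratio -1.82), PCDH15 (-1.75), PCDHA13 (-1.21), PCDHA7 (-1.01) and PCDHA4 (-1.01) were the 5 lower ones. PCDH17 (-0.99) and PCDH9 (113 CPM against 225 and 227 CPM) lay just outside the mark. By cluster, 14 of 15 PCDHB genes compared were above 0 (median 0.72) and 2 of 15 PCDHA genes were (median -0.48).

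The genes that work with cadherins were read from lists of known components. Of 24 catenins and junction linkers in the table, 20 were tested, 7 fell with LMO1 and 1 rose, with a median of -0.05. The shares over all genes, for this and the lists that follow, were 15.1% lower and 15.9% higher. The 4 with the lowest adjusted p all fell. Vinculin (VCL), which couples catenins to actin, went from 171 ± 2.08 CPM (SD, n = 2) to 114 ± 3.64 CPM (n = 2), a log2 fold change of -0.59 (SE 0.0420, edgeR adjusted p = 5.67e-16). The p120-related catenin ARVCF changed by -0.35 (SE 0.0356, edgeR adjusted p = 2.36e-11), the actin-bundling linker LIMA1 by -0.45 (SE 0.0464, 4.9e-11) and plakoglobin (JUP) by -0.29 (SE 0.0428, 2.71e-07). Beta-catenin (CTNNB1), at 297 ± 19.5 CPM in the LMO1 group against 307 ± 2.17 CPM, was not called (log2 fold change -0.04, SE 0.0346, edgeR adjusted p = 0.406). The nectin PVRL2, the single gene of the list that rose (0.36, SE 0.0685, edgeR adjusted p = 3.67e-05), is named here after its value was seen.

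Among 17 other cadherin superfamily genes tested, 4 rose and 1 fell. The giant cadherin FAT3 went from 3.07 and 3.74 CPM with the vector to 13.8 and 15.3 CPM with LMO1 (log2 fold change 2.09, SE 0.164, edgeR adjusted p = 1.11e-14), with 9.84 CPM in the parental library and 56.9 CPM in Kelly. FAT4, its relative that binds dachsous cadherins, went the other way, from 31.7 and 32.1 CPM to 17.3 CPM in both LMO1 libraries (log2 fold change -0.88, SE 0.0928, edgeR adjusted p = 1.05e-10). The calsyntenin CLSTN3 rose by 1.03 (SE 0.0944, edgeR adjusted p = 1.48e-12) and CLSTN1 by 0.22 (SE 0.0604, 0.00464). The CLSTN1 call was lost without LMO1 replicate 1 or vector replicate 1. The fourth gene that rose, CLSTN2 (0.20, SE 0.0665, edgeR adjusted p = 0.0152), is named after its value was seen, and its call was lost with DESeq2 and without LMO1 replicate 1, LMO1 replicate 2 or vector replicate 1.

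Of 11 regulators of protocadherin promoter choice, 1 rose and 3 fell, all by small amounts. The shares over all genes were 15.9% higher and 15.1% lower, and whether this short list differs from them was not tested. RAD21, a cohesin subunit, rose by 0.18 (SE 0.0303, edgeR adjusted p = 4.67e-06), whereas the cohesin subunits STAG2 (-0.15, SE 0.0327, 0.000277) and SMC1A (-0.16, SE 0.0379, 0.00105) and the cohesin loader NIPBL (-0.21, SE 0.0475, 0.000453) fell. The SMC1A call was lost without LMO1 replicate 1. CTCF was not called (109 ± 0.172 against 112 ± 3.30 CPM, log2 fold change -0.03, SE 0.0461, edgeR adjusted p = 0.636). Of 8 transcription factors tested that repress cadherins in epithelial-mesenchymal transition, TCF4 rose (0.21, SE 0.0318, edgeR adjusted p = 1.01e-06) and ZEB2 fell (-0.27, SE 0.0782, 0.00576). Of 22 proteases and intracellular partners, 4 rose and 4 fell. The 4 with the lowest adjusted p were the WAVE complex genes CYFIP1 (-0.18, SE 0.0423, edgeR adjusted p = 0.000771), WASF1 (-0.25, SE 0.0671, 0.00267) and WASF3 (0.30, SE 0.0961, 0.0148) and the presenilin PSEN2 (0.48, SE 0.154, 0.0135). The WAVE genes CYFIP2 (0.23, edgeR adjusted p = 0.0433) and BRK1 (0.19, 0.0211) also rose, and FYN and RHOA fell, all 4 named after their values were seen. Of these 8 calls, those of CYFIP1 and WASF1 held under every alternative, and the other 6, which include all 4 rises, were each lost with DESeq2 or library totals and without at least 2 of the libraries left out in turn.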

How the data were processed

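RNA-seq libraries were made with a stranded total RNA kit, per the labels' protocols. The authors deposited raw counts per gene symbol for 6 libraries. Per the submitters' processing notes, the tools included TopHat2 2.0.6 and HTSeq, and the build was hg19. Annotation, strand setting and any read filter are not given in the sources used here. Genes with exactly 2 counts outnumbered those with 1 in every library (925 against 455 in LMO1 replicate 1), so the ends of a fragment may have been counted separately, and counting intervals may be too narrow. Those intervals (95%, Clopper-Pearson conditional on the sum) and the floor of 3 counts (0.0504 to 0.16 CPM) cover counting error only.

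The LMO1 test used edgeR 4.0.16 under R 4.3.3 (TMM, filterByExpr, quasi-likelihood F test, two-sided, Benjamini-Hochberg over 15480 genes). The common biological coefficient of variation was 3.6%, with 2 residual and 43.7 prior degrees of freedom. CPM values use TMM factors over all 6 libraries, and comparisons with 1 library on a side use a pseudocount of 0.5 CPM and a minimum of 1 CPM. The members and the lists were chosen with earlier results of these data known. The genes named were every called member, the type I cadherins, the 10 highest means, the 8 highest and lowest Kelly ratios and the 5 highest and lowest parental ratios past 2-fold, and up to 4 called genes of each list. The test was checked on simulated counts. DESeq2 1.42.0, limma 3.58.1, other filters and scalings, a replicate block, and leaving out each library were tried as alternatives. Same-numbered libraries did not deviate together (correlation -0.0218). Exon lengths and shared words came from GENCODE transcripts and promoters from RefSeq, both of a later build than the counts, and the coordinates printed are those of the RefSeq promoter windows in that later build.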

Additional observations from a re-analysis of the deposited data

How the results depend on the processing

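Of the 24 calls with LMO1, 16 held under every alternative that tested them and 8 were lost under at least 1, while 6 of the 54 uncalled members were called under at least 1. PCDH19 was not tested under the 1 CPM filter. No direction reversed. With each library left out in turn, 8 to 12 members were called lower. The 3 clustered genes called higher became 1 with DESeq2 and 1 to 3 with a library left out. The 3 called lower became 1 with DESeq2, 7 without a filter on low counts, and 1 to 2 with a library left out. With the replicate block, 10 members were called higher and 14 lower, 3 clustered genes each way, and no call changed. For parental over vector, the 8 members at least 2-fold higher became 4 at a minimum of 5 CPM. The 5 lower became 3 with a pseudocount of 1 CPM, 8 with 0.1 CPM and 3 at a minimum of 5 CPM. The cause of these shifts was not tested. Depth limits members with few counts, among them CDH5 and PCDH19 in BE2C, and the 10 members too low to test. The comparisons with Kelly and with the parental library have no replicate check on at least 1 side.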

Other observations

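Several desmosomal and giant cadherins outside the CDH and PCDH families were far higher in Kelly than in BE2C. DSG2, a desmoglein, was listed at 0 in the 4 modified BE2C libraries and at 0.0628 CPM in the parental library, and reached 81.7 CPM in Kelly. The desmocollins DSC2 and DSC3 were at 17.8 and 42.8 CPM in Kelly, with DSC2 at 0 in all 5 BE2C libraries and DSC3 at 0.241 to 0.785 CPM in them. FAT1 stood at 68.0 CPM in Kelly and at 1.41 to 2.91 CPM in BE2C, and the dachsous cadherin DCHS1 at 115 CPM against 2.62 to 5.25 CPM. The catenin CTNND2, which binds classical cadherins in neurons, had 14.7 CPM in Kelly and 0.0628 CPM in the parental library. These genes were chosen after their values were seen, and 1 Kelly library gives no test. Of 19 other cadherin superfamily genes compared with parental BE2C, 9 were at least 2-fold higher in Kelly and 2 lower. FAT4 was lower in Kelly (16.1 CPM against 30.4 CPM in the parental library). FAT2 (4.63 and 4.73 CPM) and DSG3 (0.772 and 0.963 CPM) were not higher. Of 21 catenins and junction linkers, 3 were higher and 8 lower. Over all genes compared, 17.5% were higher and 14.6% lower. The epithelial markers summed to 4.40 CPM in Kelly, the lowest of the 6 libraries. KRT14 was at 0 in all 6, KRT5 and ESRP1 were above 0 in Kelly and in the parental library, and CDH1 had 0 counts in Kelly.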
